A study of Mus musculus with 2 samples.

Results

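Annotated transcripts longer than 6000 bases were a small and unevenly built part of the neonatal mouse adrenal transcriptome. They were taken as every known transcript model with a length over 6000 bases that held at least 1 read in either of 2 long-read libraries. A transcript model is a chain of exons, and a known model is one whose exon chain is in the GENCODE M21 annotation. The rule gave 825 models of 782 genes, out of 23597 known models detected. It used the annotated length of the model, not a measured level and not the length of any read.

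The tissue was adrenal gland of male B6CASTF1/J mice aged 4 days, the F1 cross of C57BL/6J and CAST/EiJ, with no treatment or second condition. Both libraries belong to this 1 group as biological replicates 1 and 2. The labels leave it unclear whether 1 or 2 animals were used: replicate 1 is tied to an animal called male 03, whereas for replicate 2 the tissue label says male 04 and the library label says male 03, under a donor identifier common to both. Differences between the libraries are therefore differences between 2 samples, which may be technical.

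Replicate 1 held 688436 mouse reads and replicate 2 held 810818. Model levels are given as CPM, meaning reads scaled to 1000000 mouse reads per library, and 1 read equalled 1.45 CPM (replicate 1) or 1.23 CPM (replicate 2). A count of 0 allows up to 3 reads, or 4.36 CPM in replicate 1 and 3.70 in replicate 2. All intervals below are 95% Wilson intervals and cover counting error only. The 6 cortex markers, genes of steroid synthesis and its control, summed to 45794 CPM in replicate 1 and 31226 in replicate 2. The 6 chromaffin markers summed to 12501 and 9291 CPM in replicates 1 and 2. The 6 liver markers summed to 206 CPM in replicate 1 and 9800 in replicate 2, a difference that stands beside every comparison of the libraries below.

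A messenger RNA can be long because its protein is long, as in collagens, myosins and giant scaffold proteins, or because its 3′ untranslated region, which follows the stop codon, is long. Many genes can end their RNA at more than 1 place in the last exon. The hexamer AATAAA, or its common variant ATTAAA, just upstream of such a place helps to direct cleavage and addition of the poly(A) tail. Long-read cDNA sequencing is usually primed on the poly(A) tail, so reads that stop early lose the 5′ part of the RNA first.

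The sequences that bear most on these models are the places where reads of their genes ended. The read ends themselves are not in the files used here. They were approached through new models, which are exon chains absent from the annotation. Whether the ends of a new model are those of its reads, or were moved to a nearby annotated end when the model was made, was not tested. The most frequent end lay within 10 bases of the annotated end of another model of the gene in 302 of the 550 long models examined. Each sequence is the reference sequence of the GENCODE M21 transcript (build mm10), 5′ to 3′ on the transcript's strand, and lies in the 3′ untranslated region. The first set shows the 30 bases up to the most frequent end of new models that share the last splice site of a long model. Its models were picked because a poly(A) signal hexamer, in capitals, stands in that window. Of the 20 most abundant long models, 18 had such an end, with no minimum of reads set. The hexamer preceded it in 6 and not in 12.
Ppp2ca-201 (chr11:52122578-52122607, plus strand): ccgcagtgttttcatAATAAActtgagaac
Glo1-206 (chr17:30592866-30592895, minus strand): ggctgaAATAAAgctaacactgtttagtac
Soat1-207 (chr1:156429793-156429822, minus strand): gatgaAATAAAtgactatgtgatcatttgt
Ppm1a-201 (chr12:72794535-72794564, plus strand): tcAATAAAgcttggtttaacaaacaagaca
Hnrnpd-211 (chr5:99961003-99961032, minus strand): tggttttttAATAAAtccttttgtataaaa
Sf3b1-201 (chr1:54987024-54987053, minus strand): gagaAATAAAcattcgtgtacaaaatgcta

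The second set shows the same window for abundant long models without either hexamer.
Rab11b-201 (chr17:33746750-33746779, minus strand): cttcgtgttttgtatatacaactgctcttg
Cdc37-201 (chr9:21139483-21139512, minus strand): tctatggtcactgtttttcttctgtctagc
Eif4g2-213 (chr7:111070561-111070590, minus strand): ttaaataattactatataactttacgcaca

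The third set shows the same window for 3 collagen models whose new models ran to the annotated end or close to it.
Col5a3-201 (chr9:20770050-20770079, minus strand): caagAATAAAccaaggaactgtgctcttct
Col4a2-201 (chr8:11449258-11449287, plus strand): ccataAATAAAagatattctaaggacttga
Col4a1-201 (chr8:11198431-11198460, minus strand): taccactAATAAAcctgtaagctttgctgc

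The last sequence shows the 10 bases before and the 20 bases after the most frequent end in a model where a run of A in the reference followed it. Capitals mark each A after the end.
Serbp1-201 (chr6:67284038-67284067, plus strand): actaagaattAAAAAAAAAAAAAAAAAAAA

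Reads of the long models were few. Replicate 1 assigned 8354 reads to 655 of them, which is 1.21% of its mouse reads (95% interval 1.19 to 1.24%). Replicate 2 assigned 8311 reads to 653 of them, 1.03% of its mouse reads (1.00 to 1.05%). Both libraries detected 483 of the models, while 172 had reads only in replicate 1 and 170 only in replicate 2. Known models of any length were also often seen in 1 library alone. Of all 23597 detected, replicate 1 held 18893 and replicate 2 held 20117. Most were thinly covered: 248 models rested on a single read in all, and 133 had at least 10 reads in each library.

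The annotation holds 4192 models over 6000 bases, of which replicate 1 detected 15.6% (14.6 to 16.8%) and replicate 2 also 15.6% (14.5 to 16.7%). Models of over 4000 and up to 6000 bases were detected more often, at 26.2% (25.3 to 27.1%) in replicate 1 and 26.6% (25.7 to 27.5%) in replicate 2. The intervals of the 2 length classes do not overlap in either library. Among models of genes with at least 20 reads, here counting every read given to the gene, the picture differed by library. In replicate 1 the long models were detected in 53.3% (48.1 to 58.5%, 185 of 347) of cases, against 52.7% (50.3 to 55.2%) at over 4000 and up to 6000 bases. In replicate 2 the shares were 40.5% (36.3 to 44.9%) of long models against 52.7% (50.4 to 55.0%).

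By gene type, 797 of the 825 models were protein-coding and held 16246 of the 16665 reads. The 3 lincRNA models held 311 reads, and 16 retained-intron models held 55 reads. The median long model had 13 exons, against 6 exons for the shorter known models. The median length of the long models was 6985 bases, and 592 of them measured at most 8000 bases.

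The most abundant long model encoded G3bp1, an RNA-binding protein of stress granules, with 444 reads in replicate 1 (645 CPM) and 389 in replicate 2 (480 CPM), a mean of 562 ± 117 CPM (SD, n = 2). Further RNA-binding or translation proteins were among the 20 most abundant. Hnrnpu, a nuclear RNA-binding protein, had 359 CPM in replicate 1 and 216 in replicate 2. Eif4g2, a translation initiation factor, had 293 and 217 CPM in replicates 1 and 2. Tsn (translin, a nucleic-acid-binding protein) and Ncl (nucleolin, a protein of the nucleolus) followed at means of 182 ± 4.48 and 149 ± 19.1 CPM (SD, n = 2 each).

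Signalling and chaperone genes came next. Ppp2ca, the catalytic subunit of protein phosphatase 2A, had 386 CPM in replicate 1 and 353 in replicate 2. Cdc37, a co-chaperone that brings kinases to Hsp90, had 298 CPM in replicate 1 and 258 in replicate 2. The phosphatase Ppm1a averaged 143 ± 11.8 CPM (SD, n = 2). In all 3 of these genes replicate 1 was the higher library, as it was in 105 of the 147 long models tested below. None of the 3 met the limits set there for a difference between the libraries.

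Vesicle transport and the cytoskeleton were represented by the small GTPases Rab11b, of recycling endosomes, and Rab18, of lipid droplets and the endoplasmic reticulum, and by the microtubule plus-end protein Mapre1. Rab11b had 362 CPM in replicate 1 and 317 in replicate 2. Rab18 averaged 219 ± 45.1 CPM and Mapre1 129 ± 23.4 CPM (SD, n = 2 each).

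Of the 20, 4 served mitochondria, and in 3 of these replicate 2 was the higher library. None of the 4 met the limits set below for a difference between the libraries. Dnajc15, a mitochondrial J-domain protein, had 232 CPM in replicate 1 and 286 in replicate 2. Mrpl17, a protein of the mitochondrial ribosome, had 164 and 180 CPM, and Timm17a, of the inner-membrane import machinery, had 109 and 141 CPM, in replicates 1 and 2. Fech, the ferrochelatase of haem synthesis, ran the other way with 141 CPM in replicate 1 and 107 in replicate 2.

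The metabolic genes included Soat1, which esterifies cholesterol for storage in lipid droplets, with 151 CPM in replicate 1 and 102 in replicate 2. Glo1, which detoxifies methylglyoxal, averaged 287 ± 52.9 CPM, and Chst2, a sulfotransferase acting on sugar chains, averaged 155 ± 56.5 CPM (SD, n = 2 each). Zfand5, a zinc-finger protein that interacts with ubiquitin and the proteasome, averaged 241 ± 58.0 CPM. The last of the 20 was the noncoding RNA Neat1, the scaffold of paraspeckles, with 137 CPM in replicate 1 and 107 in replicate 2. Together the 20 held 40.4% of all reads of the long models.

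**Figure D1:**
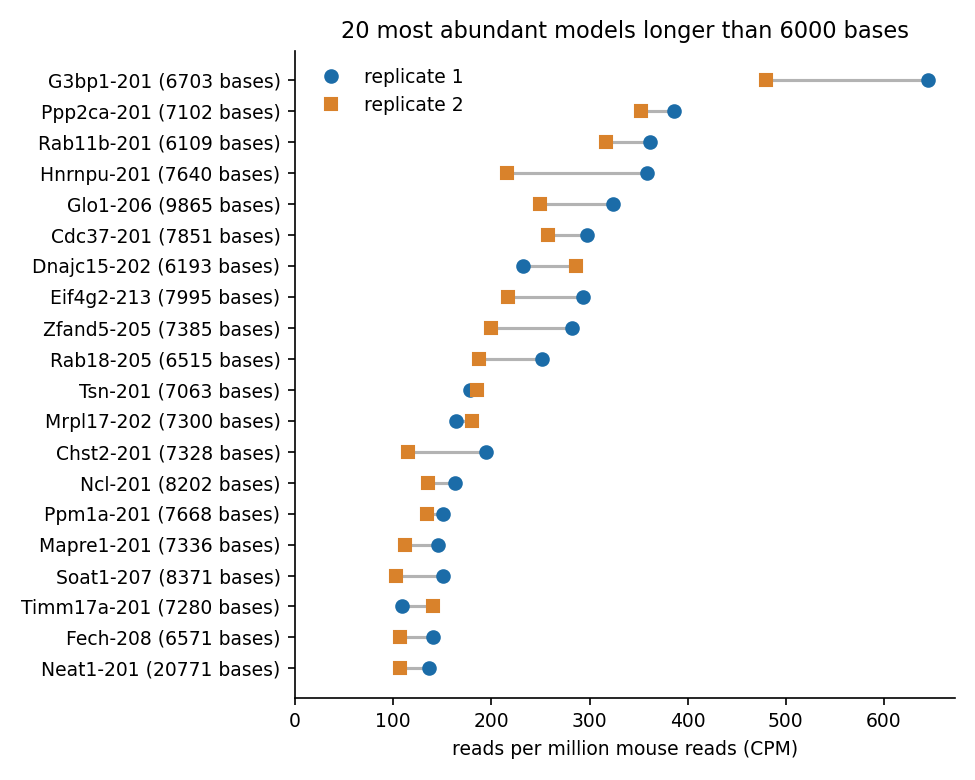
Level of the 20 most abundant models longer than 6000 bases, in reads per 1000000 mouse reads (CPM), with replicate 1 as blue circles and replicate 2 as orange squares; the grey line joins the libraries. G3bp1-201 stands above the others at 645 CPM in replicate 1 and 480 in replicate 2, and Neat1-201 has the lowest mean of those shown, with 137 and 107 CPM.

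The 5 longest models with at least 10 reads in each library were Hnrnpr-207, Neat1-201, Serbp1-201, Pnpla8-201 and Cdc73-201. Hnrnpr-207, of an RNA-binding protein, measured 21452 bases and had 30 reads in replicate 1 and 29 in replicate 2. Neat1-201 measured 20771 bases in 1 exon and had 94 and 87 reads. Serbp1-201, of another RNA-binding protein, measured 15474 bases and had 27 and 28 reads, in replicates 1 and 2. Pnpla8-201 (13507 bases, a phospholipase) had 33 and 22 reads, and Cdc73-201 (11586 bases, of the transcription-elongation complex PAF1) had 20 and 16 reads. The longest detected model of all, D10Wsu102e-201, measured 123179 bases, of which the last exon took 122802, and had 14 reads in replicate 1 and 9 in replicate 2.

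Of the functional gene lists, matrix and basement membrane genes were the most often represented. Of 31 such genes, 22 had an annotated model over 6000 bases and 12 had a detected one, with 99 reads in replicate 1 and 122 in replicate 2. Col4a1 and Col4a2, the main chains of basement membrane collagen, led the list. Col4a1-201 had 54 reads in replicate 1 and 64 in replicate 2, and Col4a2-201 had 23 and 33. Lamc1-201, the laminin gamma 1 chain, had 6 reads in each library. The list does not hold the collagen Col5a3, whose model Col5a3-201 had 29 reads in each library.

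Of 35 cytoskeleton and motor genes, 34 had an annotated long model but 9 had a detected one. Their leader was the kinesin Kif5b-201, with 23 reads in replicate 1 and 21 in replicate 2, ahead of the nonmuscle myosin Myh9-201 with 7 and 4. Of 35 receptor and adhesion genes, 6 had a detected long model, and none of these held more than 8 reads over both libraries. Of 40 chromatin and transcription genes, 36 had an annotated long model and 5 a detected one, among them the glucocorticoid receptor Nr3c1-203 with 2 reads in replicate 1 and 3 in replicate 2. The list of RNA processing and translation does not hold G3bp1, Hnrnpu, Eif4g2 or Ncl. It had 4 genes with a detected long model, led by the splicing factor Sf3b1-201 with 11 and 25 reads.

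The smaller lists held few reads. Signalling had 5 genes of 28 with a detected long model, led by Iqgap1-201 with 1 read in replicate 1 and 5 in replicate 2. Channels and transporters had 6 genes of 27, led by the ion cotransporter Slc12a2-201 with 5 and 3 reads. Membrane traffic had 3 genes of 25, led by Rab3gap2-201 with 6 and 3 reads. Ubiquitin and proteolysis had 1 gene of 17, the ubiquitin ligase Trip12-201, with 0 reads in replicate 1 and 3 in replicate 2. Lipid and sterol metabolism had 3 genes of 20, and Soat1-207 gave 104 of its 107 reads in replicate 1 and all 83 in replicate 2, while Osbpl8 had 2 reads and Fasn 1, in replicate 1 alone. Of 16 noncoding RNAs, 4 had a detected long model, led by Neat1 and by Malat1-201 with 39 reads in replicate 1 and 58 in replicate 2.

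None of the 16 genes of cortex hormone synthesis and its control had an annotated model over 6000 bases, although these genes held 35986 reads in replicate 1 and 28952 in replicate 2. Of 20 liver genes, 1 had an annotated model over 6000 bases and none had a detected one. The other 762 long models belonged to genes of no list and held 7919 reads in replicate 1 and 7849 in replicate 2. The lists thus cover few of the reads, and G3bp1, Hnrnpu, Ppp2ca and Rab11b are in none of them.

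Most of the annotated length lay in the last exon, which a matching read need not cover in full. For a read to match the exon chain of a known model it must cross all splice junctions, which requires the internal exons but neither the full first exon nor the full last exon. The median long model had a last exon of 5079 bases and internal exons summing to 1652 bases. Weighted by reads, the median last exon was 5877 bases and the internal exons summed to 882 bases (947 in replicate 1 and 882 in replicate 2). Among the models with more than 1 exon the last exon took a median of 70.9% of the length, against 44.9% in the shorter known models. The last exon was over 50% of the model in 584 of 791 multi-exon models, which held 88.7% of all reads of the long models.

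G3bp1-201 illustrates the build of the abundant models: 5380 of its 6703 bases lay in the last exon and 1206 in internal exons. Glo1-206 had 9291 of 9865 bases in the last exon and 382 in internal exons. In Chst2-201, which has 2 exons, 7182 of 7328 bases were last exon. A further 34 models, Neat1 and Malat1 among them, had a single exon and no junction to match, and held 696 reads.

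Models whose junctions required much sequence were rarely matched. Those with internal exons over 3000 bases numbered 214 of the 825, and held 968 reads, 5.81% of the total. The 29 models with internal exons over 6000 bases held 47 reads, 0.282% of the total, with 26 in replicate 1 and 21 in replicate 2. Examples were chosen for naming after their counts were seen. Myo7a-203, an unconventional myosin with 6486 bases of internal exons, had 4 reads in replicate 1 and 2 in replicate 2, and 2610507B11Rik-201, with 6457 bases, had 3 in each. Tpr-201, a protein of the nuclear pore basket, had 2 and 1 reads, and Flna-202, the actin crosslinker filamin A, had 1 read in each library.

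**Figure D2:**
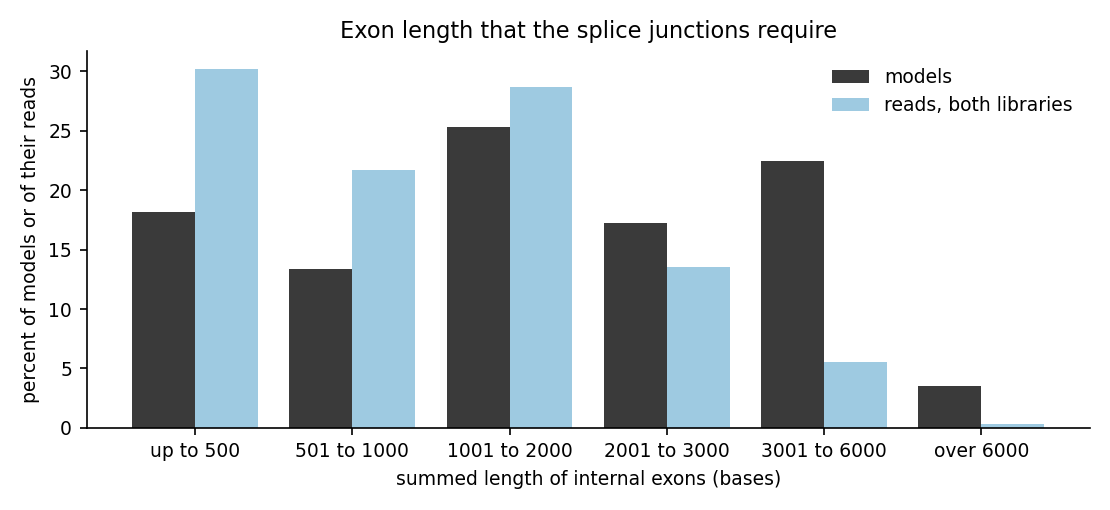
Percent of the 825 long models (dark bars) and of their 16665 reads (light bars) by the summed length of internal exons in bases. Models with up to 500 bases of internal exons held 30.2% of the reads, and the 29 models over 6000 bases held 0.282%.

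How far reads ran into the last exon was followed in the new models. After counting models of a gene that share the last splice site once, 550 long models had 6355 reads of such new models. Where the annotated last exon was over 3000 bases (407 models, 3776 reads), 4.74% of the reads ended within 100 bases of the annotated end, and 90.4% ended before 50% of the last exon. Where it was up to 3000 bases (143 models, 2579 reads), 80.0% of the reads reached within 100 bases of the annotated end. The median of the covered share over models was 20.7% in the first class and 100% in the second.

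The sequences given above locate these ends. In Serbp1, 52 of 89 reads of new models ended 145 bases into a last exon of 13834 bases, directly before 20 consecutive A.

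A poly(A) signal preceded the frequent end in 6 of the 18 most abundant models with such an end, Ppp2ca, Glo1, Ppm1a, Mapre1, Soat1 and Fech. Among the 12 without it, the end rested on 1 of 3 reads in Rab18 and 1 of 2 in Mrpl17. In Tsn it rested on 4 of 11 reads, and the window was coding or spanned the stop codon. The count over 128 models below required at least 5 reads, so the 2 shares are not alike. In Ppp2ca 22 of 42 reads ended 706 bases into a last exon of 5877 bases, with AATAAA in the last 15 bases before the end. In Soat1 24 of 25 reads ended 1323 bases into 6591 bases, and in Hnrnpd, an RNA-binding protein that binds AU-rich elements, all 71 ended 331 bases into 5399 bases. No hexamer stood before the end in Cdc37, where 61 of 93 reads ended 481 bases into 6742 bases, or in Eif4g2, where 94 of 242 ended 2197 bases into 5008 bases. The ends in Serbp1, Soat1 and Hnrnpd lay within 10 bases of the annotated end of another model of the same gene that ends earlier. Of the 407 models with a long last exon, 212 had their most frequent end within 10 bases of another model's annotated end. In some of these, such as Itgav-201 and Tacc1-202, that was also the annotated end of the long model itself.

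Collagens went both ways. In Col5a3 452 of 461 reads ended exactly at the end of its 929-base last exon. All 182 reads of Col4a2 ended at the end of a 1229-base last exon, and 243 of 273 reads of Col4a1 ended at base 1452 of 1460. In Col5a1, by contrast, 6 of 84 reads came within 100 bases of the annotated end and 46 ended 707 bases into a last exon of 2645 bases. In Col5a2 none of 30 reads did, and 29 ended before 50% of the 1910-base last exon.

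Over all 128 long models with a last exon over 3000 bases, at least 5 reads at the most frequent end, and that end over 100 bases short of the annotated end, 62 (48.4%) had AATAAA or ATTAAA in the 30 bases before it. Overlaps of these hexamers were allowed and the transcript strand alone was searched. The same hexamers stood in 3.36% of all 30-base windows of the last exons and in 75.3% of the annotated ends of multi-exon long models. Runs rich in A, with 12 or more A in the next 20 bases, followed 18 of the 128 ends (14.1%), against 1.57% of all 20-base windows. The A limit was chosen after the sequences were seen, and a hexamer match is a description, not a shown site of cleavage.

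**Figure D3:**
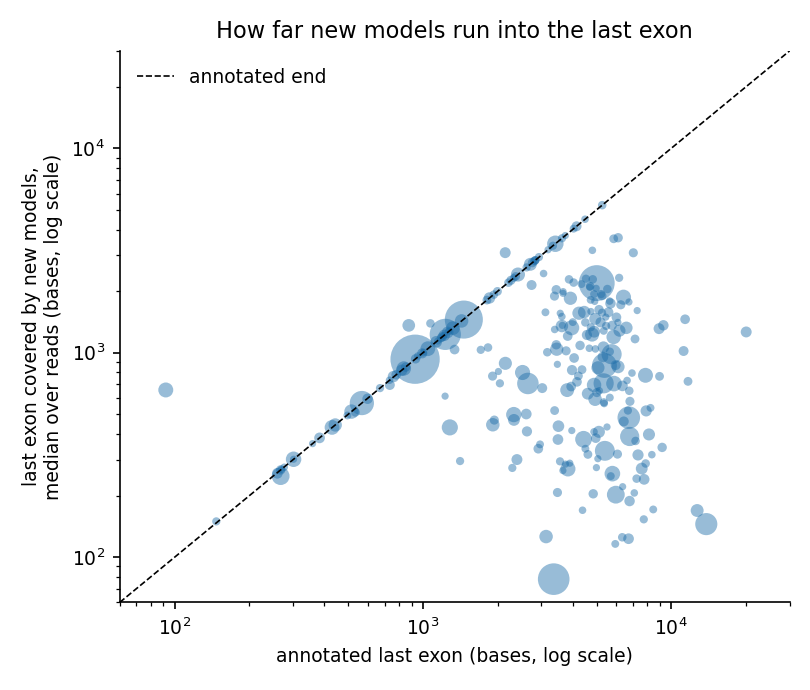
Bases of the last exon covered by new models (median over reads) against the annotated last exon in bases, both on log scales, for the 259 long models with at least 5 such reads. Point area rises with the number of reads, and the dashed line is the annotated end. Of the 86 points with last exons up to 3000 bases, 63 lie within 100 bases of the line or above it, against 9 of the 173 points with longer last exons.

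The same genes were then examined for incomplete splice matches (ISM), reads whose exon chain matches only a stretch of a known chain. The share was taken as ISM reads among known, ISM and new-junction reads (the classes NIC, new combinations of known splice sites, and NNC, chains with a new splice site), in genes with at least 20 such reads in that library. A gene was led by a long model when its known model with the most reads was over 6000 bases, which held for 704 of the 782 genes. Of these, 130 genes reached 20 reads in replicate 1 and 138 in replicate 2.

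Genes led by a long model had an ISM share of 13.5% in replicate 1 (12.8 to 14.2%, 1219 of 9063 reads), against 9.49% (9.42 to 9.57%) in genes led by a shorter model. In replicate 2 the share was 19.1% (18.3 to 19.9%, 1875 of 9812 reads) against 10.8% (10.7 to 10.8%). The intervals did not overlap in either library. The median gene showed a smaller gap, with 6.25% in genes led by a long model against 4.82% in the others in replicate 1, and 9.09% against 6.67% in replicate 2.

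Along the length of the leading model the median gene did not climb throughout. It was higher in each longer class up to 8.67% in replicate 1 and 12.2% in replicate 2 at over 4000 and up to 6000 bases, and was lower, at 6.25% and 9.09%, above 6000 bases. The pooled share at over 4000 and up to 6000 bases was 12.6% (12.2 to 12.9%) in replicate 1 and 15.8% (15.5 to 16.2%) in replicate 2. In replicate 1 this interval overlaps that of the long class, and in replicate 2 it lies below it.

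**Figure D4:**
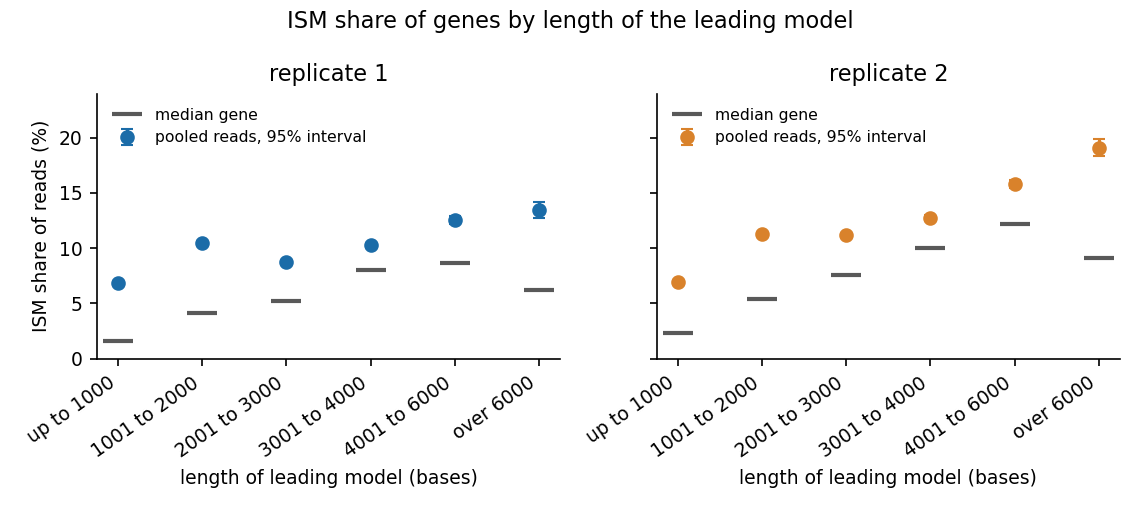
ISM share of reads (percent) by the length of the leading known model in bases, for replicate 1 on the left and replicate 2 on the right. Circles are pooled reads with 95% Wilson intervals and bars are the median gene; above 6000 bases the pooled share is 13.5% and 19.1% while the median gene is at 6.25% and 9.09%.

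A few genes carried much of the pooled share. The 4 genes with the most ISM reads, Col5a3, Col4a2, Col4a1 and Eif4g2, gave 42.3% of the ISM reads behind that share in replicate 1 and 38.9% in replicate 2. Without the collagen genes, a choice made after the data were seen, the share was 8.97% (8.38 to 9.60%) against 9.46% (9.39 to 9.54%) in replicate 1, and 13.5% (12.8 to 14.2%) against 10.7% (10.6 to 10.8%) in replicate 2. The pooled excess of long-led genes was thus absent from replicate 1 and smaller in replicate 2 without collagens.

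Col4a2 had the highest ISM share of the genes with at least 50 reads in each library, 84.6% (132 of 156 reads) in replicate 1 and 85.4% (223 of 261) in replicate 2. Col5a3, a fibrillar collagen chain, had 74.8% (190 of 254) and 76.8% (212 of 276), and Col4a1 had 64.8% (116 of 179) and 69.4% (159 of 229), in replicates 1 and 2. Each of these 3 genes kept the same order in both libraries. Slc4a3, an anion exchanger, followed with 39.6% and 49.0%, and Eif4g2 with 26.6% and 40.3%. Col5a1, another fibrillar collagen chain, had 24 ISM reads of 33 in replicate 1 and 52 of 60 in replicate 2.

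The 5 lowest of these genes carried next to no ISM reads. Chst2 had 0 of 134 reads in replicate 1 and 0 of 93 in replicate 2, which allows a share of up to 2.24% in replicate 1 and 3.23% in replicate 2. Mrpl17 had 0 of 116 (up to 2.59%) and 1 of 147, and Tsn had 2 of 132 and 0 of 155 (up to 1.94%), in replicates 1 and 2. Rab18 had 1 of 174 and 1 of 155 reads, and Zfand5 2 of 215 and 2 of 194. All 5 had internal exons of at most 502 bases, whereas the 5 highest had between 2741 and 4988 bases.

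The split by internal exons, added after the data were seen, separated the genes led by a long model further. With internal exons over 3000 bases the pooled ISM share was 62.2% (59.2 to 65.1%, 16 genes) in replicate 1 and 69.2% (66.8 to 71.5%, 25 genes) in replicate 2. With over 1000 and up to 3000 bases it was 11.0% and 16.1%, and with up to 1000 bases it was 3.57% (3.04 to 4.18%) and 4.71% (4.12 to 5.38%), in replicates 1 and 2. Shorter leading models, split the same way, gave 27.6%, 11.1% and 8.48% in replicate 1 and 31.1%, 14.5% and 8.79% in replicate 2, from the most internal sequence to the least. So long-led genes with up to 1000 bases of internal exons lay below shorter-led genes of that class, and those with over 3000 bases lay above, with intervals that do not overlap in either library. Collagens were 4 of the 16 genes in replicate 1 and 5 of the 25 in replicate 2, but held most of the reads of this class. They gave 462 of its 639 ISM reads and 622 of its 1028 reads in replicate 1. In replicate 2 they gave 665 of 1030 ISM reads and 850 of 1488 reads.

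**Figure D5:**
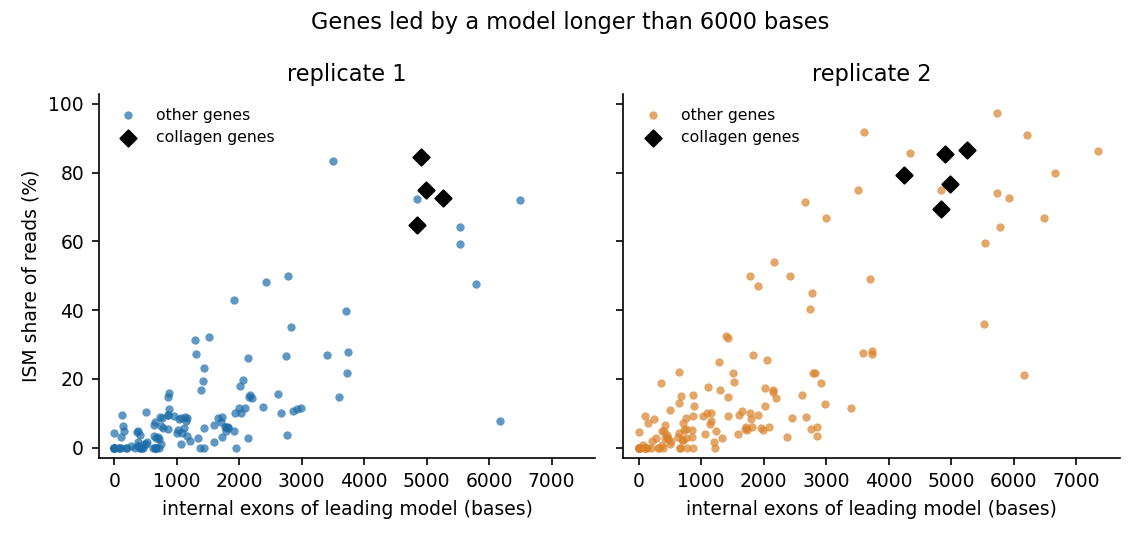
ISM share of reads (percent) against the internal exons of the leading model in bases, 1 point per gene led by a long model with at least 20 reads, for replicate 1 (left, 130 genes) and replicate 2 (right, 138 genes). Black diamonds are collagen genes. The pooled share above 3000 bases, collagens included, is 62.2% and 69.2%, against 3.57% and 4.71% up to 1000 bases.

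Most ISM reads of the long-led genes lacked the 5′ part of the chain. Suffix matches, which run to the 3′ end of a known chain, made up 80.3% of their ISM reads in replicate 1 and 76.2% in replicate 2, against 66.7% and 68.0% in shorter-led genes. Prefix matches, which keep the 5′ end, made up 9.11% and 5.87%. Single-exon ISM reads made up 9.19% of them in replicate 1 and 16.9% in replicate 2. In Col5a3, a 67-exon gene, the median ISM read belonged to a model of 24 exons in replicate 1 and 27 in replicate 2. In Col4a2, of 48 exons, 55 of 132 ISM reads in replicate 1 and 122 of 223 in replicate 2 had a single exon. The longest ISM models of Col5a3 held 66 exons in both libraries.

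Levels of the long models between the libraries were tested on their reads (Fisher's exact test, two-sided), with Benjamini-Hochberg adjustment over all 6901 known models with at least 20 reads in all. A call required both a log2 ratio (replicate 1 over replicate 2) of at least 1 in size and an adjusted p under 0.05. Of the 147 long models tested, 1 was called higher in replicate 1, where 2.04% of all models tested were, and 1 was called lower, where 2.14% of all were. Tardbp-202, of an RNA-binding protein, was higher with 25 reads (36.3 CPM) in replicate 1 and 10 reads (12.3 CPM) in replicate 2, a log2 ratio of 1.52 (Fisher's exact test, adjusted p = 0.0389). Paqr9-201, of the progestin and adipoQ receptor family, was lower with 4 reads (5.81 CPM) in replicate 1 and 33 reads (40.7 CPM) in replicate 2, a log2 ratio of -2.71 (Fisher's exact test, adjusted p = 0.000243).

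The liver markers summed to 206 CPM in replicate 1 and 9800 in replicate 2, and their part in the Paqr9 difference was not tested. In bulk tissue, more cells of a type and more RNA per cell cannot be told apart. The call for Tardbp was lost under other scalings, with a log2 ratio of 1.35 and adjusted p = 0.0979 under TMM, and 1.29 and 0.131 under DESeq2 size factors (Fisher's exact test in both). The median log2 ratio was 0.29 over the 147 long models and 0.20 over all models tested. With TMM the median over all models was 0.02 and that of the long models 0.11, and 43 models of all were called higher and 180 lower, against 141 and 148 with mouse reads as the scale. A further 6 long models, such as G3bp1-201 and Hnrnpu-201, had an adjusted p under 0.05 with a log2 ratio under 1.

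The ISM share itself was compared by the same test in the 117 genes led by a long model with at least 20 reads in each library. A call needed an adjusted p under 0.05 over 5091 genes and a difference of at least 10 percentage points, which 1.83% of all genes met. Of the 117 genes, 4 were called, all lower in replicate 1. The calls over all genes leaned the same way, with 65 lower and 28 higher in replicate 1. Called or not, the share was lower in replicate 1 in 68 of the 117 genes and in 2871 of the 5091. Eif4g2 had 78 of 293 ISM reads in replicate 1 and 135 of 335 in replicate 2, a difference of -13.7 points (Fisher's exact test, adjusted p = 0.0216). Slc6a6, the taurine transporter, had 4 of 67 and 42 of 84 reads (Fisher's exact test, adjusted p = 2.15e-07). Gramd1b, a sterol-transfer protein of the endoplasmic reticulum, had 5 of 33 and 35 of 65 (Fisher's exact test, adjusted p = 0.0130), and Agpat5, an acyltransferase of phospholipid synthesis, had 0 of 41 (up to 7.32%) and 11 of 50 (Fisher's exact test, adjusted p = 0.0415), in replicates 1 and 2.

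For 3 of these genes the class given to single-exon reads moved with the difference. In Slc6a6, 0 ISM reads had a single exon in replicate 1 and 38 did in replicate 2, while reads of the Genomic class, which overlap the gene without a matching exon chain, numbered 34 in replicate 1 and 0 in replicate 2. Gramd1b had 0 and 25 single-exon ISM reads beside 45 and 26 Genomic reads, and Agpat5 had 0 and 9 beside 5 and 0, in replicates 1 and 2. When Genomic reads were counted together with ISM reads, an alternative added after seeing the data, 1 of the 4 calls remained, that of Eif4g2 at -14.1 points (Fisher's exact test, adjusted p = 0.0335), and Slc6a6 stood at -12.4 points (Fisher's exact test, adjusted p = 0.768).

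At the length limit itself, 39 detected models of up to 6100 bases held 423 reads, and the 54 shorter models of over 5900 bases held 1620. The most abundant just inside were Mrps25-203 (6073 bases, a mitochondrial ribosomal protein; 38 and 57 reads), Kif5b-201 (6032 bases; 23 and 21) and Sec63-201 (6032 bases, of protein translocation; 22 and 21), in replicates 1 and 2. Just outside were Col1a1-201 (5930 bases, the type I collagen chain; 152 and 345 reads), Ppp1cb-201 (5962 bases, a catalytic subunit of protein phosphatase 1; 82 and 68) and Mlec-201 (5955 bases, a lectin of the endoplasmic reticulum; 78 and 61).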

How the data were processed

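Per the file headers, the authors deposited 1 table per library of raw read counts per transcript model, with the model's exons, length and class, and an annotation of the models (mm10, GENCODE M21). For the aligner, its version and the read filters: not given in the sources used here. Exon lengths of known models were taken from the deposited annotation, and model lengths equalled their exon sums. Spike-in reads were left out, and the levels are reads per 1000000 mouse reads (CPM). Shares carry 95% Wilson intervals. Libraries were compared with two-sided Fisher's exact tests (SciPy 1.17.1, Benjamini-Hochberg, 0.5 CPM added to log2 ratios), checked on simulated counts, and rescaled with TMM (edgeR 4.0.16) and DESeq2 1.42.0 size factors as alternatives. These tests compare 2 libraries, not conditions, and have no replicate on either side. Named were the 20 most abundant long models, the 5 longest with 10 reads in each library, the 3 leading of each list, called models, neighbours of the length limit, and genes with the most ISM reads or extreme ISM shares. The members, the gene lists and these rules were chosen with earlier results of these data known.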

Additional observations from a re-analysis of the deposited data

How the results depend on the processing

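The number of long models was 1625 at over 5000 bases, 233 at over 8000 bases and 483 with a read in each library, and lay between 653 and 655 with either library left out. Of the 2 models called between the libraries, 1 call was left with TMM, with DESeq2 size factors and with no filter on low counts, each time Paqr9; with at least 50 reads the 1 call was Cpsf6, chosen for naming here only. Of the 4 calls of ISM share, 2 were left at 50 reads in each library and 1 with Genomic reads counted as ISM. The mean ISM share of genes led by a long model, 16.3%, became 9.95% at over 8000 bases, 26.2% with at least 10 exons, 11.2% without collagens, 34.5% when long meant internal exons over 3000 bases, and 61.4% when the last exon was at most 3000 bases. Over the same 5 settings the pooled difference from shorter-led genes, 6.15 points, became -0.28, 13.1, 1.15, 24.7 and 51.2 points, so it reversed at over 8000 bases, where it was -1.92 points in replicate 1 and 1.36 in replicate 2. The median-gene difference, 1.93 points, became 7.74 with at least 5 reads, 3.55 at over 5000 bases, -0.12 at over 8000 bases, 4.69 with at least 10 exons, and 26.5 and 59.5 under the internal-exon and last-exon settings. The cause of the reversals was not tested. With either library left out, the ISM share lay between 13.5 and 19.1% and the pooled difference between 3.96 and 8.34 points. Detection of long annotated models, 15.6%, became 5.86% at 5 reads or more and 46.9% in genes with at least 20 reads of any class. The read-weighted sequence required by junctions, 882 bases, became 1323 bases when only the last exon was left out and 1003 bases without single-exon models. No paired analysis was possible because the samples form 1 group. Depth limits the long models: the median detected one held 3 reads over both libraries.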

Other observations

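Few new models were long. The NIC and NNC classes held 197 models over 6000 bases with 234 reads in replicate 1, 0.420% of the reads of those classes, and 266 models with 308 reads in replicate 2, 0.483%. The longest measured 9732 bases in replicate 1 and 9765 bases in replicate 2. These are the lengths of the deposited models; whether their ends are those of the reads was not tested. The longest known models detected, such as D10Wsu102e-201 with 123179 bases, lie far beyond them. Col5a3 gave an NNC model of 6116 bases and 67 exons with 8 reads in replicate 1.

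ISM models of genes led by a long model were also mostly short. Weighted by reads their median length was 2342 bases in replicate 1 and 2298 bases in replicate 2. Models over 6000 bases held 18 of 1961 ISM reads in replicate 1 and 21 of 2724 in replicate 2. Myh8 and Eif5b were chosen after their values were seen. Myh8, the perinatal myosin heavy chain of skeletal muscle, had 17 ISM reads of 17 in replicate 1 and 36 of 37 in replicate 2, beside a sum of the 4 muscle markers, Myh8 among them, of 1198 CPM in replicate 1 and 1952 CPM in replicate 2. Eif5b, a translation initiation factor, had 22 prefix matches among 25 ISM reads in replicate 1 and 9 among 15 in replicate 2, whereas in Col5a3 suffix matches were 186 of 190 in replicate 1 and 211 of 212 in replicate 2.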
